A study of Mus musculus with 10 samples.

Results

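A set of 10 genes used to tell where macrophages come from and whether they stay in a tissue was followed in the fetal mouse pancreas: Csf1r, Mrc1, Lyve1, Cx3cr1, Ccr2, Timd4, Adgre1, Cd163, H2-Ab1 and Cd74. The 10 genes were taken by symbol from 27716 genes listed in every count matrix. They were read in macrophages, defined as cells with at least 4 UMIs (unique molecular identifiers, each 1 captured RNA molecule) of C1qb plus C1qc and at least 1 of Tyrobp, and in the other cell classes of the same libraries. The gate found 1708 macrophages among 57982 cells with at least 200 genes, and none of the 10 genes was used to draw it.

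Tissue macrophages of the fetus arise from progenitors of the yolk sac and fetal liver, and the growth factor receptor encoded by Csf1r keeps them alive. Mrc1, Lyve1, Timd4 and Cd163 encode scavenger or clearance receptors that are used as marks of long-lived resident macrophages, while Ccr2 encodes the chemokine receptor by which monocytes leave their site of birth and enter tissue. H2-Ab1 and Cd74 belong to antigen presentation on MHC class II, which is a mark of dendritic cells and of activated or monocyte-derived macrophages. Adgre1 encodes F4/80, the classic surface mark of mouse macrophages, and Cx3cr1 encodes the receptor for the chemokine fractalkine.

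For 3 of the genes, a mannose receptor and a phosphatidylserine receptor of resident-type cells and the monocyte chemokine receptor that was seldom found with them, the promoter is shown as the 250 bases before the RefSeq start on GRCm38.p6, 5′ to 3′ on the gene's own strand. Capitals mark GAGGAA and GGAAGT on either strand, which are core letters bound by PU.1 (Spi1), a factor of the myeloid lineage. The motifs overlap where the end of GAGGAA is the start of GGAAGT. Mrc1 at chr2:14229164-14229413 held 3 copies of GAGGAA and 1 of GGAAGT, Timd4 at chr11:46810549-46810798 held 1 copy of GGAAGT, and Ccr2 at chr9:124101933-124102182 held neither.
Mrc1: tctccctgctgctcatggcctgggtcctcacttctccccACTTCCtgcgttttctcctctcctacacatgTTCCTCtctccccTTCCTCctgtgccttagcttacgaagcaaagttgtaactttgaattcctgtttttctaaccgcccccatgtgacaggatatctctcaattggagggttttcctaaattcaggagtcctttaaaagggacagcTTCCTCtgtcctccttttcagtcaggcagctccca
Timd4: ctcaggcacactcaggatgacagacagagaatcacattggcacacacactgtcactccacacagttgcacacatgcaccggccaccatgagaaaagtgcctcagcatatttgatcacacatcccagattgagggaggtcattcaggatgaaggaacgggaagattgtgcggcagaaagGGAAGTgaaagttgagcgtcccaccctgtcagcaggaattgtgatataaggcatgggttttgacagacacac
Ccr2: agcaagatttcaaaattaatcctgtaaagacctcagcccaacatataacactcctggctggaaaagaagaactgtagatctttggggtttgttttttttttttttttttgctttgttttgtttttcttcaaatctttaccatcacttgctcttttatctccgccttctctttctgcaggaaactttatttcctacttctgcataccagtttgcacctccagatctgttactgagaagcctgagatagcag
Among 32851 promoters of the same length, 23.3% held GAGGAA, 19.7% held GGAAGT and 36.7% held at least 1 of them. A match is a string of letters and not a measured binding site. Cx3cr1 and Cd163 had an entry too, and neither motif was in it. GENCODE M21 starts Ccr2 at chr9:124101950, so most of its printed bases lie inside that gene model. The Cx3cr1 entry lies wholly inside its own gene model, and the last bases of the Mrc1 window lie inside that of Mrc1. For Ccr2 and Cx3cr1 the lack of a motif therefore does not describe the sequence before the GENCODE start. All 10 genes are protein coding in GENCODE M21.

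Pancreata were collected on embryonic days E12.5, E14.5 or E17.5 and loaded on the 10x Chromium platform. There were 7 libraries from Swiss Webster embryos: a first kit version (v1) gave E12.5, E14.5 in 2 batches and E17.5, and a second version (v2) gave 1 library of each stage. The remaining library was from E14.5 Fev-Cre;ROSA26mTmG embryos on a C57BL/6J background, in which cells with a history of Fev expression carry GFP and the rest tdTomato. All live cells were loaded in v1, cells negative for CD140a (PDGFRA, a mesenchymal surface protein) in the v2 stages, and GFP-positive together with tdTomato-positive cells in the Fev-Cre library. The sorts can set the share of macrophages, so that share is given only as a description. Each library was 1 pool of embryos from 1 litter, except the v1 E12.5 pool of 2 litters. The second v1 batch was prepared on another day than the first and holds 1 well of each stage, and the v2 stages were each prepared on a different day. The time in the enzyme mix rose with stage, so handling and stage cannot be told apart.

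The gate found 19 macrophages in the E12.5 v1 library, 52 in E14.5 v1 batch 1, 24 in E14.5 v1 batch 2, 14 in E17.5 v1, 689 in E12.5 v2, 194 in E14.5 v2, 620 in E17.5 v2 and 96 in the Fev-Cre library. They were 0.411 to 5.23% of the cells of a library. Library totals ranged from 15671934 to 196793242 UMIs, and the median macrophage held 3561.5 to 10426 UMIs. All 14 macrophage markers kept apart from the gate were detected in each library, while dendritic markers reached 2 to 7 of 8. The 14 hold C1qa, a C1q gene like the gate genes C1qb and C1qc. All 8 endothelial, 6 epithelial, 6 mesenchymal and 9 erythroid markers were detected in E12.5 v2 too, so detection alone does not name the cells. They had 1017, 1678, 759 and 107859 UMIs there, against 56799 for the macrophage markers. Monocyte or neutrophil markers reached 10 of 10 in E17.5 v2. In all, 192 macrophages also passed the gate of another class, 189 of them in v2 libraries. Pairs of v1 libraries shared 19 to 35 barcodes and pairs of v2 libraries 87 to 156, of which at most 2 were macrophages in both.

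Csf1r, Adgre1 and Cx3cr1 were found in the macrophages of every library, and their levels overlapped between stages. Levels are CPM, the gene's share of all UMIs of the summed macrophages on the counts-per-million scale. Csf1r, on chromosome 18, was at 712 CPM in E12.5 v1, 730 and 519 in the v1 E14.5 batches 1 and 2, 521 in E17.5 v1, 434, 276 and 573 in v2 from E12.5 through E14.5 to E17.5, and 552 in the Fev-Cre library. Cx3cr1 (chr9:119901616-120069879, minus strand) ranged from 277 CPM in E17.5 v1 to 673 in E12.5 v1. Adgre1 (chr17:57358691-57483527, plus strand) ranged from 143 CPM in E12.5 v2 to 537 in E14.5 v1 batch 1. For none of the 3 did the libraries of a stage stand apart from those of both other stages.

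Mrc1 and Lyve1, the mannose receptor and the hyaluronan receptor, were high in 5 libraries and low in the 3 libraries of v1 batch 2. Mrc1 (chr2:14229392-14332057, plus strand) was at 135, 233 and 81.4 CPM in v1 batch 2 from E12.5 through E14.5 to E17.5, at 1391 in E14.5 v1 batch 1, at 608, 531 and 862 in the v2 stages and at 768 in the Fev-Cre library. Lyve1 (chr7:110850607-110863239, minus strand) was at 106, 106 and 146 CPM in v1 batch 2, at 763 in E14.5 v1 batch 1, at 520, 867 and 1175 in the v2 stages and at 660 in the Fev-Cre library. The 3 libraries of v1 batch 2 did not overlap the other 5 for either gene. With each cell thinned to 2000 UMIs (1701 macrophages kept, 7 left out as shallower), Mrc1 had a UMI in 8.33 to 33.3% of macrophages in v1 batch 2 and in 63.2 to 76.6% elsewhere. Before thinning these shares were 26.3 to 41.7% and 79.7 to 92.7%. Epithelial cells, which should lack Mrc1, showed at most 0.373% after the same thinning. They were gated to hold no C1qb or C1qc, so cells with macrophage RNA were in part left out beforehand. This holds for each epithelial share given below. Lyve1 had a UMI in 10.5 to 16.7% of thinned macrophages in v1 batch 2 and in 44.1 to 55.7% elsewhere (10.5 to 21.4% and 51.9 to 65.5% before thinning), against at most 1.87% of epithelial cells.

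Ccr2, the monocyte chemokine receptor (chr9:124101950-124113557, plus strand), had the opposite pattern. It was at 192, 532 and 407 CPM in v1 batch 2 from E12.5 through E14.5 to E17.5, at 59.1 in E14.5 v1 batch 1, at 17.3, 137 and 179 in the v2 stages and at 41.8 in the Fev-Cre library. The 3 libraries of v1 batch 2 were again apart from the other 5, here above them. For E12.5 v1 this rests on 20 UMIs, and its interval of 118 to 297 CPM holds the 137 and 179 of the later v2 stages. Ccr2 was higher at each later stage within v2, and was lower at E12.5 than at both later stages within v1 batch 2. The thinned share of macrophages with Ccr2 went from 2.61% at E12.5 to 12.4% and 23.7% in v2 (7.26, 21.1 and 40.5% before thinning), and was 15.8, 50 and 58.3% in v1 batch 2. In epithelial cells it was at most 0.173%.

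**Figure D1:**
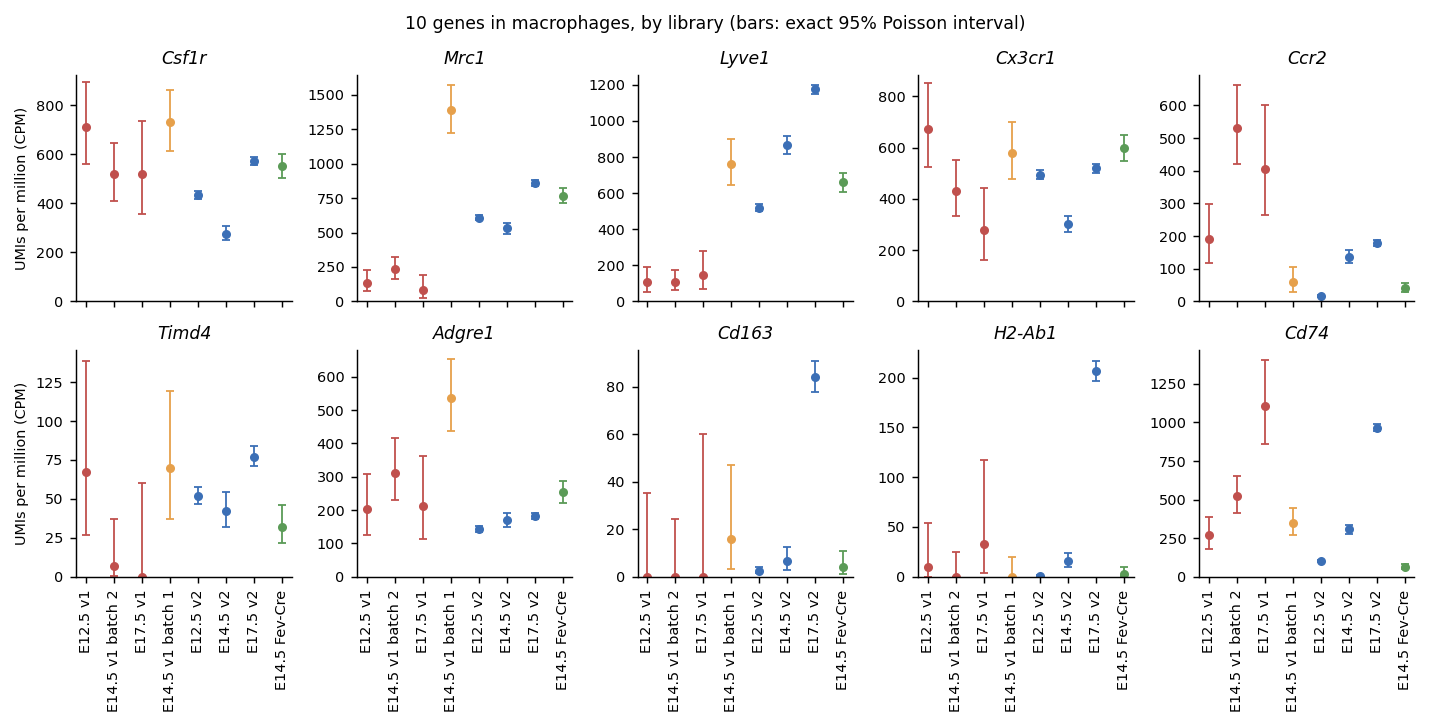
Level of each of the 10 genes in macrophages (CPM, linear axes from 0) in the 8 libraries, with red for v1 batch 2, orange for v1 batch 1, blue for v2 and green for Fev-Cre. Points are the summed macrophages of 1 library and bars are exact 95% Poisson intervals, which cover counting error only; Mrc1 and Lyve1 were lower and Ccr2 was higher in the 3 red points than in the other 5.

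Timd4 and Cd163 were sparser. Timd4, the phosphatidylserine receptor TIM-4 (chr11:46810800-46844332, plus strand), was at 67.3, 6.65 and 0 CPM in v1 batch 2, at 69.8 in E14.5 v1 batch 1, at 51.9, 42.1 and 77.2 in the v2 stages and at 32.1 in the Fev-Cre library. The 0 of E17.5 v1 allows up to 48.8 CPM in its 14 macrophages, and the range of the other libraries reaches below that limit. In thinned macrophages Timd4 had a UMI in 0 to 21.3% (0 to 31.5% before thinning). Cd163, the haptoglobin-haemoglobin receptor (chr6:124304656-124330527, plus strand), had no UMI in v1 batch 2, was at 16.1 CPM in E14.5 v1 batch 1, 2.48, 6.65 and 84.2 in the v2 stages and 4.28 in the Fev-Cre library. E17.5 v2 stood above the others, with Cd163 in 12.9% of thinned macrophages against 0.871% at E12.5 v2 and 0.515% at E14.5 v2 (32.1, 2.32 and 4.12% before thinning). Epithelial cells showed at most 0.0196% for Cd163 and 0.0579% for Timd4 after the same thinning. The 0 in v1 batch 2 allows up to 19.95 to 48.8 CPM by counting error alone, so a level like the earlier v2 stages was not detectable. By cells, Cd163 was in 0 of 19, 24 and 12 thinned macrophages of v1 batch 2, with upper limits of 17.6, 14.2 and 26.5%. These limits hold the 12.9% of E17.5 v2, so a share like that one could have been missed too.

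The MHC class II pair were highest at E17.5. Cd74, the invariant chain on chromosome 18 that escorts class II molecules, was at 269, 525 and 1107 CPM in v1 batch 2 from E12.5 through E14.5 to E17.5, at 349 in E14.5 v1 batch 1, at 101, 307 and 965 in the v2 stages and at 65.3 in the Fev-Cre library. Both E17.5 libraries lay above every library of the earlier stages. In E17.5 v2, 34 of 620 macrophages held 77.5% of the Cd74 UMIs, and the level without them is given below. H2-Ab1, the class II beta chain (chr17:34257689-34269419, plus strand), was at 9.62, 0 and 32.5 CPM in v1 batch 2, which were 1, 0 and 2 UMIs, at 0 in E14.5 v1 batch 1, at 0.620, 15.5 and 206 in the v2 stages and at 3.21 in the Fev-Cre library. Only E14.5 v2 and E17.5 v2 held more than 4 UMIs of it. With cells thinned, Cd74 had a UMI in 66.7% of macrophages in E17.5 v1, 26.3% in E17.5 v2 and 8.33 to 33.3% at the earlier stages (78.6, 50.6 and 18.8 to 50% before thinning), against at most 2.24% of epithelial cells. H2-Ab1 had a UMI in 6.61% at E17.5 v2 (10.5% before thinning), against at most 1.87% of epithelial cells.

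The split of v1 batch 2 from the other libraries was set against all genes. Of the 10 genes, 3 did not overlap (Mrc1 and Lyve1 below, Ccr2 above), and the listed values of Cd163 did not either, but 4 of its 5 other libraries lay under the limit that a count of 0 allows in batch 2, so it cannot be called below. This stands beside 616 of 4527 genes at 50 CPM or more in some library, which is 13.6% (7.53% below and 6.07% above). At E14.5 within v1, batch 1 over batch 2 was 5.98 for Mrc1 (interval 4.19 to 8.77), 7.17 for Lyve1 (4.26 to 12.9) and 0.111 for Ccr2 (0.0533 to 0.210). Intervals of ratios here are exact 95% intervals of 2 counts and cover counting error only. The 15 monocyte-type genes summed to 2415, 7483 and 12645 CPM in v1 batch 2 against 1009 to 4700 CPM elsewhere, with S100a8 at 0 in batch 2 at E12.5 and E14.5. Among their defining members, Ly6c2 was at 0, 79.8 and 228 CPM in v1 batch 2 and at 3.21 CPM or less elsewhere. Haemoglobin genes took 13.1, 25.0 and 60.9% of all UMIs in v1 batch 2 and 0.0128 to 31.8% elsewhere. With haemoglobin left out of the macrophage totals the split remained, and Ccr2 was closest to overlap, at 192.5 CPM in E12.5 v1 against 189 in E17.5 v2. Mast cell markers summed to 456 CPM in E17.5 v1 (28 UMIs, 4 of 8 genes detected) and to 0 to 13.7 CPM in the other 7 libraries. The part of the monocyte-type and mast cell genes in the split was not tested.

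Stages were compared in macrophages summed per library, with edgeR's quasi-likelihood test over the 7 Swiss Webster libraries and a term for kit version. Each stage held 2 libraries, or 3 at E14.5, with 3 residual degrees of freedom, and 3359 genes passed the filter on low counts. Of the 10 genes 8 passed, without Cd163 and H2-Ab1. Cd74 alone was called, and its fitted log2 fold from E12.5 to E17.5 was 2.95 ± 0.41 (SE, adjusted p = 0.00576, edgeR). Over all genes 53 were called between these stages (1.58%, 1.28% higher and 0.298% lower), 3 between E12.5 and E14.5 (0.0893%, 0.0595% higher and 0.0298% lower) and 6 between E14.5 and E17.5 (0.179%, 0.119% higher and 0.0595% lower). Cd74 had 1.097 ± 0.37 from E12.5 to E14.5 (adjusted p = 0.760) and 1.85 ± 0.34 from E14.5 to E17.5 (adjusted p = 0.0534). Both steps were called without E14.5 v1 batch 1 (1.35, adjusted p = 0.0491, and 1.56, adjusted p = 0.00338).

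The Cd74 call was lost without the E12.5 v2 library (2.46, adjusted p = 0.215), without the kit term (2.85, adjusted p = 0.179) and when macrophages with 5 or more H2-Ab1 UMIs were left out (1.83, adjusted p = 0.0574). The direction was kept in all of these. Within each kit the E17.5 over E12.5 ratio of Cd74 was 9.54 in v2 (8.80 to 10.4) and 4.11 in v1 batch 2 (2.61 to 6.63). These intervals do not cover the spread between cells: the 2 wells of E17.5 v2 gave 692 and 1241 CPM.

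Ccr2 had the next size of change, 2.61 ± 0.84 on the log2 scale from E12.5 to E17.5, and was not called (adjusted p = 0.210, edgeR quasi-likelihood test). The kit term pools both v1 batches, between which Ccr2 differed at E14.5. Without E14.5 v1 batch 1, which leaves the 3 stages once in v1 batch 2 and once in v2, Ccr2 was called from E12.5 to E17.5 (2.69 ± 0.40, adjusted p = 4.78e-07) and from E12.5 to E14.5 (2.39 ± 0.39, adjusted p = 2.05e-05). The SE was 0.40 there against 0.84 in the main fit, and 7373 genes were tested against 3359. edgeR takes part of a gene's spread from all genes tested, so these p-values rest only in part on the spread of Ccr2 itself between pools. What made the SE smaller was not tested. From E12.5 to E17.5 Ccr2 was also called without E14.5 v1 batch 2 (2.43, adjusted p = 0.000835, edgeR) and with no filter on low counts (2.52, adjusted p = 2.25e-05, edgeR). In fits that leave 1 library at a stage, its fold was 3.48 without E12.5 v1 and 2.79 without E17.5 v1. It was 3.46 with v1 batch 2 left out and Fev-Cre added. From E12.5 to E14.5 it was called in 5 alternatives in all, at an adjusted p of 2.05e-05 to 0.0193. It was not called without any one of the v2 libraries, and without E12.5 v2 the fold from E12.5 to E17.5 was 1.37. From E12.5 to E17.5 it was also uncalled with DESeq2 (2.40, adjusted p = 0.259). Nor was it called in edgeR with a stricter C1q gate (3.05, adjusted p = 0.0757) or relative log expression scaling (2.64, 0.187). The same held with Fev-Cre added (2.56, 0.164) and no kit term (2.08, 0.9997). Leaving out haemoglobin genes, cells with fewer genes, macrophages passing another gate or H2-Ab1-high macrophages gave 2.42 to 2.61 (adjusted p 0.194 to 0.324, edgeR). The E17.5 over E12.5 ratio of Ccr2 was 10.3 in v2 (8.51 to 12.6) and 2.11 in v1 batch 2 (1.13 to 4.01). In edgeR, the test of the difference between kits gave an adjusted p of 1.00, with 1 residual degree of freedom and 0 of 4330 genes called (83 at an unadjusted p under 0.05).

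The other 6 genes that passed the filter showed no called stage change in this fit. From E12.5 to E17.5 Lyve1 had a log2 fold of 1.18 ± 0.72, Mrc1 0.49 ± 0.85, Adgre1 0.48 ± 0.40, Csf1r 0.30 ± 0.38, Timd4 0.30 ± 0.67 and Cx3cr1 −0.19 ± 0.41 (SE; adjusted p 0.788 to 0.996). From E12.5 to E14.5, Mrc1 and Lyve1 were called only without E14.5 v1 batch 2 (1.75, adjusted p = 0.0343, and 1.74, adjusted p = 0.0120). Within v2, E17.5 over E12.5 was 2.26 for Lyve1 (2.17 to 2.35), 1.42 for Mrc1 (1.36 to 1.48), 1.49 for Timd4 (1.30 to 1.71) and 1.05 for Cx3cr1 (1.002 to 1.101). It was 1.32 for Csf1r (1.26 to 1.39) and 1.27 for Adgre1 (1.17 to 1.38). Within v1 batch 2, Cx3cr1 went the other way, at 0.411 (0.227 to 0.705). Timd4 was at most 0.725 there (0 against 7 UMIs), Csf1r at 0.731 (0.467 to 1.12), Mrc1 at 0.604 (0.1703 to 1.77), Adgre1 at 1.05 (0.482 to 2.19) and Lyve1 at 1.38 (0.507 to 3.67). The 8 genes' median log2 fold was 0.48, beside −0.05 over all genes tested.

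**Figure D2:**
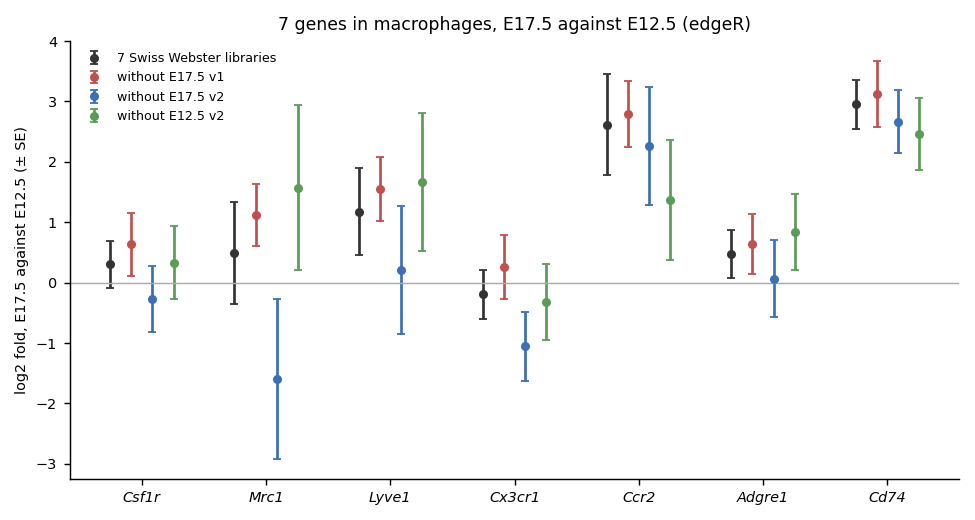
Fitted log2 fold of 7 genes in macrophages from E12.5 to E17.5 with its SE (edgeR), for all 7 Swiss Webster libraries (black) and with E17.5 v1 (red), E17.5 v2 (blue) or E12.5 v2 (green) left out. Cd74 stayed between 2.46 and 3.12 while Mrc1 moved from −1.60 to 1.57; Timd4 is not drawn because it had no UMI in E17.5 v1, and Cd163 and H2-Ab1 are not drawn because they passed the filter in only some of these fits.

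Cd163 and H2-Ab1 did not pass the filter over the 7 libraries. Cd163 had 625 UMIs in E17.5 v2 and 0 to 16 in each of the other 7 libraries, and H2-Ab1 had 1533 and 0 to 21. Both passed in some alternative fits, each of which held E17.5 v2, and no stage call is reported for either. In v2 the ratio of E17.5 over E12.5 was 34.0 for Cd163 (20.7 to 59.8; 625 and 16 UMIs) and 333 for H2-Ab1 (130 to 1225; 1533 and 4 UMIs). These are values of 1 library each. The E17.5 v2 library was run in 2 wells of 1 suspension, and the wells gave 87.7 and 80.5 CPM for Cd163, 881 and 842 for Mrc1, but 151 and 263 for H2-Ab1 and 692 and 1241 for Cd74.

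The class II signal of E17.5 v2 was held by few cells. Of 620 macrophages, 34 (5.48%) had 5 or more H2-Ab1 UMIs, and they held 97.0% of all H2-Ab1 UMIs, 77.5% of Cd74, 19.5% of Ccr2, 0.750% of Mrc1 and 0.0459% of Lyve1. In these cells Cd74 was at 13946 CPM against 229 CPM in the other 586, and H2-Aa, the class II alpha chain, at 4253 against 11.5. The 229 CPM lay below all macrophages of E12.5 v1 (269), E14.5 v1 batches 1 and 2 (349 and 525) and E14.5 v2 (307). It lay above E12.5 v2 (101) and Fev-Cre (65.3). The same 34 cells had Lyve1 at 10.0 against 1241 CPM, Mrc1 at 120.5 against 904, Pf4 at 233 against 3743 and Folr2 at 2.51 against 323. Ccr2 was also higher, at 650 against 152 CPM, and Csf1r was at 309 against 588. Markers of other cells moved with this split. Of 8 dendritic markers, 5 were higher in the 34 cells (Batf3 77.8 against 16.9 CPM, Cd209a 32.6 against 0.285, Flt3 15.1 against 0.854, Itgax 15.1 against 0.854, and Ccr7 2.51 against 0), while Zbtb46 and Xcr1 were at 0 in them and Clec9a at 0 in both sets. Counts behind the lowest values are small: 10.0 CPM of Lyve1 in the 34 cells was 4 UMIs, so Ccr7 at 2.51 CPM rests on fewer still. S100a8, a neutrophil and monocyte gene, was at 281 against 6.83 CPM, and C1qa, outside the gate, at 1539 against 3242. The part of dendritic cells or of other cells in the class II signal was not tested. At E14.5 v2, 2 of 194 macrophages held 49.2% of Cd74. In E17.5 v1, Cd74 was in 11 of 14 macrophages, 1 of which held 32.4% of its UMIs, and no cell had more than 1 H2-Ab1 UMI. In E17.5 v2, Cd74 was in 314 of 620.

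**Figure D3:**
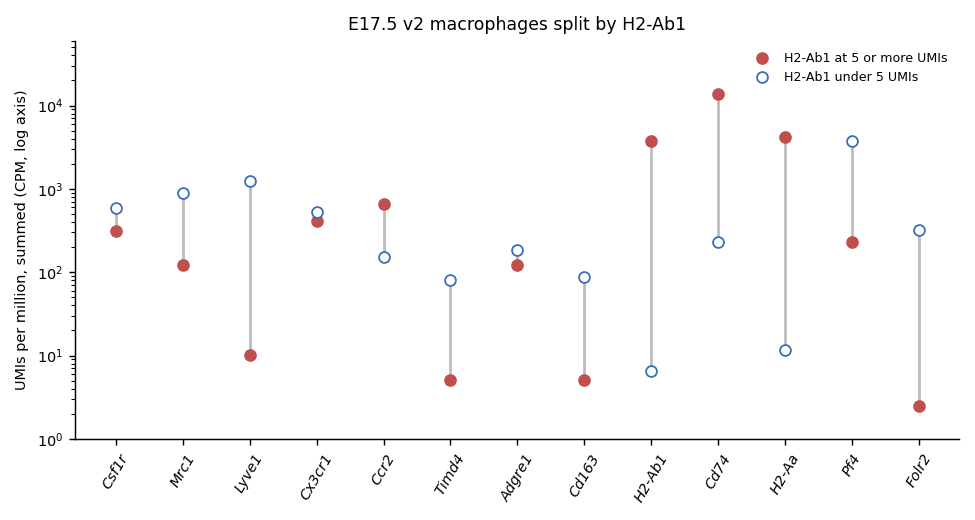
Summed level (CPM, log axis) of the 10 genes and of H2-Aa, Pf4 and Folr2 in E17.5 v2 macrophages with 5 or more H2-Ab1 UMIs (filled, 34 cells) and with fewer (open, 586 cells). H2-Ab1 sets the split; Cd74, H2-Aa and Ccr2 were above and Mrc1, Lyve1, Timd4, Cd163, Pf4 and Folr2 below in the 34 cells.

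Mrc1 and Ccr2 were seldom found in the same macrophage. Over the 1701 thinned macrophages, 1092 had Mrc1, 222 had Ccr2, 50 had both and 437 had neither. Mrc1 was in 22.5% of macrophages with Ccr2 and in 70.5% of those without it, and the share was lower with Ccr2 in each of the 4 v2 kit libraries, Fev-Cre included. In the v1 libraries no macrophage had both, but E12.5 v1 held 3 cells with Mrc1 and 3 with Ccr2 among 19 and E17.5 v1 held 1 with Mrc1 among 12, too few to show a difference. In v2 the numbers were 6 of 18 cells with Ccr2 at E12.5, 4 of 24 at E14.5, 38 of 147 at E17.5 and 2 of 7 in the Fev-Cre library. Lyve1 was in 3.60% of macrophages with Ccr2 and 53.3% of those without, 8 cells in all, pooled over libraries that differ in both genes. Within each of the 8 libraries Pearson's r of Lyve1 and Ccr2 over thinned macrophages was negative, from −0.320 to −0.0935. A cell without a UMI may still hold the RNA, so the shares given are of detection, and the cells of a library share 1 pool.

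Lyve1, Mrc1 and Cd163 were found together. Mrc1 was in 84.2% of 797 macrophages with Lyve1 and in 46.6% of those without, pooled over libraries that differ in both genes. Within libraries the shares were 77.6 against 57.9% in E12.5 v2, 86.1 against 34.9% in E14.5 v2, 89.1 against 37.2% in E17.5 v2 and 84.1 against 63.5% in Fev-Cre. In the 4 v1 libraries, with 2 to 23 macrophages with Lyve1, the share was also higher with Lyve1. Of 90 macrophages with Cd163, 80 were from E17.5 v2, and within that library Mrc1 was in 72 of the 80 against 59.3% of those without Cd163, Lyve1 in 71 against 44.4%, and Ccr2 in 1 against 27.0%. Timd4 was in 160 macrophages, of which 72.5% had Mrc1 against 63.3% of those without it, and 4.38% had Ccr2 against 14.0%, pooled over libraries. Within E12.5 v2, which held 62 of them, these shares were 85.5 against 64.8% for Mrc1 and 0 against 2.87% for Ccr2. Within E17.5 v2, which held 61, they were 62.3 against 63.3% and 11.5 against 25.04%. The other libraries held 0 to 15 each. H2-Ab1 and Cd74 were found with Ccr2: of 47 macrophages with H2-Ab1, 41 were from E17.5 v2, and of these 92.7% had Cd74 against 21.6% of that library's macrophages without H2-Ab1, 68.3 against 20.6% had Ccr2, 12.2 against 66.8% had Mrc1 and 4.88 against 53.4% had Lyve1. Cd74 was in 46.8% of macrophages with Ccr2 and in 13.5% without, pooled over libraries that differ in both genes. Within libraries the shares were 38.9 against 10.1% in E12.5 v2, 37.5 against 10.0% in E14.5 v2, 48.3 against 19.5% in E17.5 v2 and 42.9 against 5.62% in Fev-Cre. In the other 3 libraries of v1 (19 to 47 cells) the share was also higher with Ccr2, while E17.5 v1 went the other way, at 57.1 against 80.0% of 7 and 5 cells. Csf1r and Cx3cr1 differed little by Ccr2, at 59.9 against 61.9% and 57.2 against 61.1%, pooled over libraries that differ in these genes. Within libraries, Pearson's r with Ccr2 was negative in 7 of 8 for Cx3cr1 (−0.279 to 0.0148) and in 5 of 8 for Csf1r (−0.167 to 0.778).

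**Figure D4:**
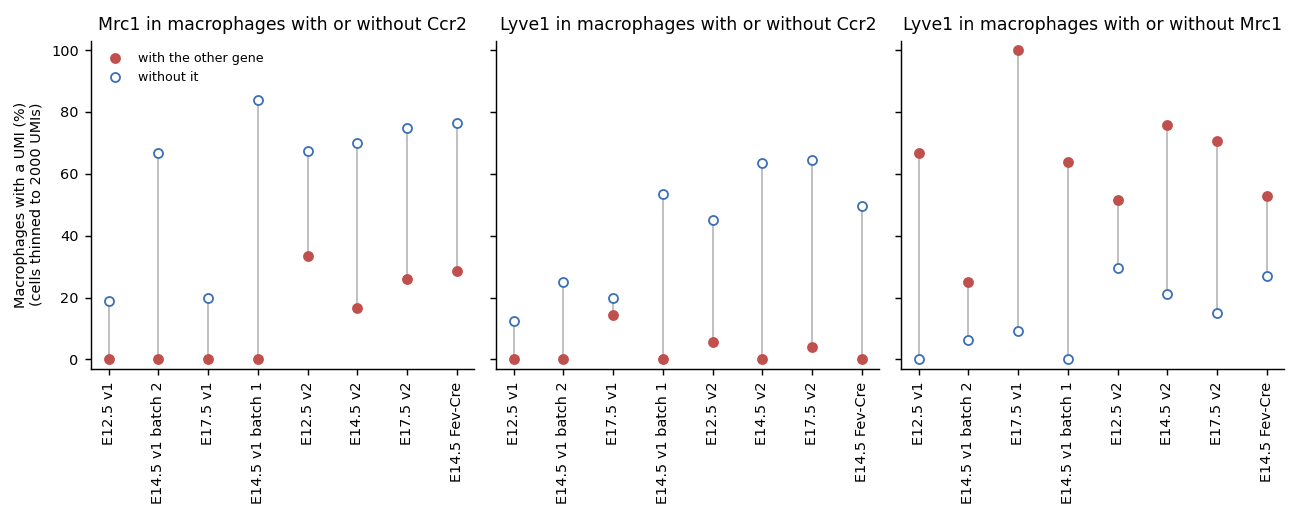
Share of macrophages (percent, cells thinned to 2000 UMIs) with Mrc1 or Lyve1 among cells with (filled) and without (open) a UMI of the other gene, by library. Mrc1 was lower with Ccr2 and Lyve1 higher with Mrc1 in each library drawn; the v1 libraries hold 12 to 47 thinned macrophages each, too few in E12.5 v1 and E17.5 v1 to show a difference.

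At E17.5 v2, which held 147 of the 222 thinned macrophages with Ccr2, macrophages with a Ccr2 UMI (251, all UMIs used) were compared with those without (369). Mrc1 was at 239 against 1270 CPM, Lyve1 at 142 against 1852 and Cd163 at 21.8 against 125. Pf4, a chemokine of platelets and resident macrophages, was at 481 against 5571 CPM. The monocyte-type genes Plac8 and Ms4a4c went the other way, at 158 against 6.02 and 173 against 10.9 CPM. Csf1r (469 against 642), Cx3cr1 (537 against 507), Adgre1 (129 against 217) and Timd4 (53.7 against 92.5) differed by less than 2-fold. The median depth was 10022 UMIs with Ccr2 and 10976 without. These are 2 sets of cells of 1 pool, with no test.

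The genes were next compared between macrophages and other classes of the same suspensions, in libraries with at least 20 cells of a class (6 for macrophages). Means are CPM ± SD over libraries. Mrc1 was at 732 ± 389 in macrophages (n = 6) and at 1.03 ± 1.78 in the other Tyrobp+ immune cells, which have Tyrobp and no C1qb or C1qc (n = 7). Lyve1 was at 682 ± 358 in macrophages and 18.4 ± 20.6 in endothelial cells (n = 8), the next class in order, where lymphatic vessels express it. Timd4 was at 46.6 ± 25.8 against 3.20 ± 5.52 in other Tyrobp+ cells, and Cd163 at 19.0 ± 32.4 against 0.572 ± 1.102. These 4 genes were thus highest in macrophages, though the SD of Cd163 exceeded its mean.

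The other Tyrobp+ cells had higher means than macrophages for Ccr2 and the class II pair. Ccr2 was at 343 ± 109 CPM in other Tyrobp+ cells, 161 ± 192 in macrophages, 128 ± 49.4 in mast cells (n = 3) and 114 ± 69.6 in lymphoid cells (n = 4), and the last 3 overlapped within their SD. Macrophages also overlapped other Tyrobp+ cells in Ccr2, with highest libraries of 532 and 517 CPM. Cx3cr1 was at 487 ± 109 in macrophages, 149.5 ± 20.8 in mast cells and 39.0 ± 21.7 in other Tyrobp+ cells. Cd74 was at 5971 ± 3466 in other Tyrobp+ cells, 385 ± 330 in macrophages and 189 ± 135 in lymphoid cells, and H2-Ab1 at 1549 ± 1321, 37.6 ± 82.9 and 32.3 ± 36.4. Csf1r was at 514 ± 151 in macrophages and 97.2 ± 37.8 in other Tyrobp+ cells, and Adgre1 at 266 ± 147 and 74.8 ± 66.2. Mesenchymal and epithelial means were at most 11.7 CPM for every one of the 10 genes.

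**Figure D5:**
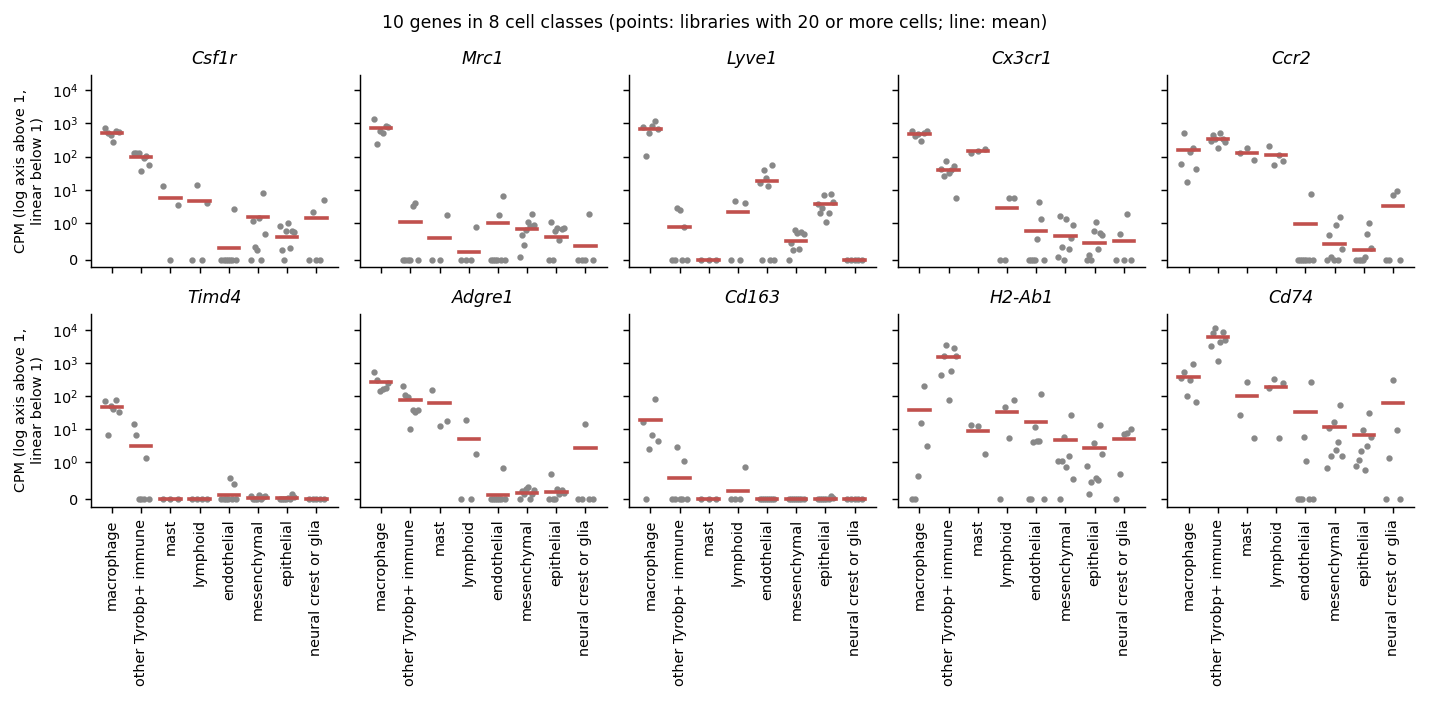
Level of the 10 genes in 8 cell classes (CPM, log axis above 1 and linear below), with a grey point for each library holding at least 20 cells of the class and a red line at the mean. Mrc1, Lyve1, Timd4 and Cd163 were highest in macrophages, while Ccr2, H2-Ab1 and Cd74 had their highest mean in other Tyrobp+ immune cells.

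A fit over 49 class sums, with the library as a block, tested 12179 genes and 9 of the 10 (not Cd163). Against other Tyrobp+ immune cells 21.9% of all genes were called (13.4% higher and 8.56% lower in macrophages), and all 9 were: 6 higher and 3 lower. The fitted log2 folds were 10.19 ± 0.65 for Lyve1, 8.26 ± 0.30 for Mrc1, 5.45 ± 0.59 for Timd4, 3.56 ± 0.27 for Cx3cr1, 2.58 ± 0.38 for Csf1r and 2.38 ± 0.28 for Adgre1. The lower genes were Ccr2 at −1.70 ± 0.40 (adjusted p = 0.00117), Cd74 at −4.00 ± 0.73 (adjusted p = 4.60e-05) and H2-Ab1 at −6.21 ± 0.53 (adjusted p = 2.11e-12). Without the library block Ccr2 was at −1.19 and was not called (adjusted p = 0.216). Folds against classes near 0 depend on the fit's prior count, and the C1q part of the gate divides these classes.

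Against endothelial cells 8 of the 9 were higher in macrophages, where 38.9% of genes were called (21.2% higher, 17.7% lower). The log2 folds ran from 3.86 ± 0.81 for Cd74 and 5.16 ± 0.39 for Lyve1 to 9.43 ± 0.64 for Csf1r, and H2-Ab1 was not called (0.70 ± 0.60, adjusted p = 0.385). Endothelial H2-Ab1 and Cd74 were themselves high in 1 library, E17.5 v2, at 112 and 260 CPM. Endothelial, mesenchymal and epithelial cells were gated to hold no C1qb or C1qc, so cells with macrophage RNA were in part left out beforehand. Against mesenchymal cells (54.5% called, 22.3% higher, 32.2% lower) and epithelial cells (53.7%, 23.8%, 29.9%) all 9 were higher, from 2.92 ± 0.53 for H2-Ab1 to 10.38 ± 0.43 for Lyve1 and from 3.35 ± 0.54 for H2-Ab1 to 9.97 ± 0.23 for Mrc1.

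The pathway around each gene was read from lists. Of the receptors' ligands, Csf1 was at 94.2 ± 99.3 CPM in mast cells (n = 3) and 15.5 ± 5.59 in mesenchymal cells (n = 8). Il34, the other ligand of the CSF1 receptor, had its highest mean in epithelial cells at 2.35 ± 1.12. It overlapped mesenchymal cells at 1.62 ± 1.76, whose highest library, at 4.57 CPM, was above the epithelial highest of 3.62. Cx3cl1, fractalkine, was at 7.65 ± 5.97 CPM in endothelial and 4.28 ± 2.90 in epithelial cells. The CCR2 ligands were highest in macrophages, with Ccl2 at 842 ± 539, Ccl12 at 371 ± 237 and Ccl7 at 243 ± 177 CPM (n = 6). Against other Tyrobp+ cells, where 13.4% of all genes were higher and 8.56% lower in macrophages, 17 of 18 scavenger and residency genes were higher in macrophages, among them Pf4 (9.70) and Gas6 (9.28 on the log2 scale), with a list median of 5.15 beside 0.11 over all genes. All 8 class II genes tested were lower (median −4.23), 13 of 15 monocyte-type genes were lower (median −3.40) and 7 of 9 microglia-type genes were higher (median 3.06). The other lists were less uniform. Of 10 chemokine genes 5 were higher and 3 lower (median 1.64), of 14 core macrophage genes 9 were higher and 5 not called (median 1.55). Of 8 CSF1 axis genes 3 were higher and 5 not called (median 0.30). The class II and monocyte-type counts hold Cd74, H2-Ab1 and Ccr2, the scavenger count holds Mrc1, Lyve1 and Timd4, and the microglia-type count holds Cx3cr1. The chemokine count holds Cx3cr1 and Ccr2, the core count Csf1r and Adgre1, and the CSF1 axis count Csf1r. The core count also holds C1qa, a C1q gene like the gate genes C1qb and C1qc, which other Tyrobp+ cells lack by their gate. Since the C1q gate divides these classes, the list counts describe that division and are no independent support for it.

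By stage, the lists were read beside the 1.28% of all genes called higher and 0.298% called lower from E12.5 to E17.5. The genes called higher were 2 of 16 scavenger genes (Hmox1, haem oxygenase, 1.93 ± 0.42, and Msr1, a scavenger receptor, 1.82 ± 0.36), 2 of 8 monocyte-type genes (S100a4 5.26 ± 0.76 and Lyz2, lysozyme, 2.502 ± 0.47), 1 of 2 class II genes (Cd74) and 1 of 13 core macrophage genes (Cd14, an endotoxin co-receptor, 1.94 ± 0.35). None of 6 chemokine and 5 microglia-type genes was called, and no gene of these lists was called lower. The list medians were 0.24, 3.04, 3.11, 0.64, 0.01 and −0.19 in the order given, beside −0.05 over all genes. These list calls were all lost with no kit term, where no gene was called. The called genes with the 3 largest folds were genes of other cells: Ins1 (11.41), Ins2 (10.09) and Hbb-y (−12.25), of beta cells and erythroid cells. Haemoglobin genes took 0.044 to 1.67% of macrophage UMIs at E12.5 and 5.21 to 15.7% at E17.5, and Cd74 kept its call with these genes left out (2.95, adjusted p = 0.00491, edgeR). The part of the beta cell genes was not tested.

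The genes most like each of the 10 were named by Pearson's r of log2 CPM over the 49 class and library sums, which share libraries and depth. They were Folr2 for Mrc1 (r = 0.977), Fcna for Lyve1 (0.881), Cd209f for Cd163 (0.917), Ccl24 for Timd4 (0.957), Fcgr1 for Csf1r (0.964), C3ar1 for Cx3cr1 (0.956), Cd300a for Adgre1 (0.954), Ptprc for Ccr2 (0.977), H2-Aa for H2-Ab1 (0.938) and Bcl2a1a for Cd74 (0.927). Among thinned macrophages within libraries, Pf4 and Dab2 came first for both Mrc1 (0.540 and 0.495) and Lyve1 (0.554 and 0.503), Cd52 and Plac8 for Ccr2 (0.516 and 0.481), and Cd74 for H2-Ab1 (0.554). For Csf1r, Cx3cr1, Adgre1, Timd4 and Cd163 no such r over libraries passed 0.40 within macrophages, in counts that are mostly 0 or 1. Each of these r draws on 3 or 4 libraries, and single libraries differed widely. They ran from 0.394 to 0.768 for Pf4 with Lyve1, 0.293 to 0.739 for Plac8 with Ccr2 and 0.349 to 0.790 for Cd74 with H2-Ab1.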

How the data were processed

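The deposited values are raw UMI counts, made by the authors for 8 independent libraries; the 2 wells of E17.5 v2 were summed, and of the 2 alignments of the Fev-Cre library the one with reporter sequences was used. Per the submitters' processing notes, reads were processed with Cell Ranger 1.1 (v1) or 2.1 (v2) against mm10. UMIs remove PCR copies. Positions of genes were read from GENCODE M21 (GRCm38), whose gene models may differ from those used for counting. Cells with at least 200 genes were kept. The authors selected against doublets by size in the sort and, in their own analysis, dropped cells that co-expressed genes of exclusive lineages; whether the deposited matrices reflect the second step was not given. Here no caller was run, and macrophages passing another gate were left out as an alternative.

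Other classes were gated on sums of 2 to 5 UMIs of their marker genes, with no C1qb or C1qc. Counts were summed per library and class and tested with edgeR 4.0.16 (quasi-likelihood, TMM scaling, its filter on low counts) in R 4.3.3; a call is a Benjamini-Hochberg adjusted p under 0.05. DESeq2 1.42.0 was an alternative. Stage fits used kit version as a term; class fits used the library as a block, since classes of a library came from 1 suspension and deviated together (r = 0.549 to 0.819 within a library, at most 0.649 between libraries). Each library is 1 pool. Stage p-values measure the spread between pools that is left after the kit term, and class p-values the spread between class sums left after the library block. In both, edgeR takes part of a gene's spread from all genes tested, so a p-value rests only in part on that gene's own spread. No source used here gives the embryos' sex. Scripts were tested on simulated data.

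The 10 genes, the lists and the tests were chosen with earlier results of these data known. Named were the 10 genes, up to 6 called genes of each list by size of change, and the genes most like each of the 10. Alternatives covered tool, scaling, filters, gates, thinning depth, single libraries, kit term and block; 2 more were chosen after seeing the data and are named in the closing section. Shares of cells were compared after thinning to 2000 UMIs. Per-gene intervals are 95% (exact) and cover counting error only; 0 UMIs is taken to allow 3. Promoters are RefSeq sequences on GRCm38.p6, matched by symbol for 5 of the 10 genes; Csf1r, Lyve1, Adgre1, H2-Ab1 and Cd74 had none. The stage result of the CSF1 axis list is not reported here.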

Additional observations from a re-analysis of the deposited data

How the results depend on the processing

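The pairing of classes by library mattered for 1 comparison: with no replicate block 1608 genes were called against other Tyrobp+ cells, where 2669 were called with it, and Ccr2 lost its call there; leaving out 1 library gave 1692 to 2665, with the lowest without E17.5 v2. The block changed no other call of the 10 genes between classes, and the counts against endothelial, mesenchymal and epithelial cells stayed within 1.5 times. The labels' replicate numbers give the stages no block. The nearest fit leaves out E14.5 v1 batch 1, so that v1 batch 2 (1 day) and v2 (3 days) each hold the 3 stages once, and it called 326, 62 and 124 genes from E12.5 to E17.5, E12.5 to E14.5 and E14.5 to E17.5.

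Counts of genes by stage moved with many settings. From E12.5 to E17.5 (53) they were 44 to 76 in 6 alternatives (stricter gate, 500 genes per cell, other scaling, and haemoglobin genes, mixed or H2-Ab1-high macrophages left out), and 94 with DESeq2, 99 with the Fev-Cre library added, 272 with no filter, 0 with no kit term and 194 with v1 batch 2 left out and Fev-Cre added, an alternative chosen after seeing the data; leaving out 1 library gave 3 (E12.5 v2) to 326 (E14.5 v1 batch 1). From E12.5 to E14.5 (3) they were 12, 6, 55, 0 and 56, and 0 (without E12.5 v2 or E14.5 v2, where 140 and 145 had an unadjusted p under 0.05) to 71 (E14.5 v1 batch 2) by library. From E14.5 to E17.5 (6) they were 36, 49, 117, 0 and 156, 18 with a stricter C1q gate, 14 without haemoglobin genes, 0 without mixed macrophages and 12 with relative log expression scaling, and 1 (E14.5 v2) to 124 (E14.5 v1 batch 1) by library. With no kit term the counts at an unadjusted p under 0.05 (edgeR) were 165, 83 and 118, and without mixed macrophages 207 from E14.5 to E17.5. The setting of 500 genes per cell left out no macrophage, so its stage counts only repeat the main fit. Leaving out macrophages with 5 or more H2-Ab1 UMIs was also chosen after seeing the data. Fewer or more genes were tested in several of these; beyond that the cause was not tested.

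Some uncalled folds of the 10 genes changed sign. With v1 batch 2 left out and Fev-Cre added, Cx3cr1 went to 0.17 from E12.5 to E17.5, and Mrc1 to 0.58 and Lyve1 to 0.77 from E14.5 to E17.5. Lyve1 was also at 0.0055 with Fev-Cre added and 0.56 with no kit term, and Timd4 at −0.27 by DESeq2 from E12.5 to E17.5. Leaving out 1 library in turn gave, from E12.5 to E17.5, −9.10 to 0.61 for Timd4, −1.60 to 1.57 for Mrc1, −0.27 to 0.63 for Csf1r and −1.05 to 0.26 for Cx3cr1. From E14.5 to E17.5 it gave −2.64 to 0.20 for Mrc1, −1.03 to 0.60 for Lyve1, −0.44 to 0.81 for Cx3cr1, −8.55 to 1.06 for Timd4 and −0.59 to 0.0071 for Adgre1, and from E12.5 to E14.5 −1.06 to 0.026 for Timd4. The −9.10 and −8.55 of Timd4 come without E17.5 v2, which leaves E17.5 with 0 Timd4 UMIs, so they depend on the fit's prior count and are no measured size. Cd74 and Ccr2 kept their direction between stages in every alternative run. From E14.5 to E17.5 Cd74 was called in 10 of them, at 1.56 to 2.49. Each stage had 1 library per kit, or 2 in v1 at E14.5, and the v1 libraries held 14 to 52 macrophages.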

Other observations

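Levels of further chemokine, ligand and receptor genes were read by library. Ccl24, an eosinophil chemokine, was at 202, 206 and 32.5 CPM in v1 batch 2 from E12.5 through E14.5 to E17.5, at 559 in E14.5 v1 batch 1, at 355, 222 and 186 in the v2 stages and at 214 in the Fev-Cre library. Gas6, a ligand of the clearance receptors Axl and Mertk, was at 221, 233 and 65.1 CPM in v1 batch 2 and at 408 to 612 CPM elsewhere. P2ry12, a purine receptor known from microglia, was at 106 CPM in E12.5 v1, 150 in E14.5 v1 batch 1 and 27.7 to 71.8 in the other 6 libraries. Cxcl12, the ligand of CXCR4, was at 441 ± 350 CPM in mesenchymal cells (SD, n = 8), 129 ± 77.3 in mast cells (n = 3) and 10.5 ± 6.50 in macrophages (n = 6).

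E17.5 v1 held 14 macrophages with a content of their own: haemoglobin genes took 15.7% of their UMIs, against 0.000964 to 5.21% in the other libraries, and S100a8 and S100a9 were at 228 and 407 CPM, against at most 21.5 and 14.54. Mast cell markers summed to 456 CPM in them.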
